A study of Mus musculus with 12 samples.

Results

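Il7r-high PD-1-negative CD62L-low CD4 cells were T cells of the pancreatic islets that held mRNA of the interleukin-7 receptor and none of the inhibitory receptor PD-1, and whose surface carried much CD11a and little CD62L. A barcode (the tag of 1 droplet, usually 1 cell) was counted as a member where it held at least 500 gene UMIs (unique molecular identifiers, each standing for 1 captured mRNA molecule) and at most 8% mitochondrial UMIs. It also had to hold at least 40 counts of the CD4 antibody, at most 3 of the CD62L antibody and at least 100 of the CD11a antibody. Of the mRNAs, at least 2 Il7r UMIs and no UMI of Cd8a, Cd8b1, Foxp3, Pdcd1, Il21 or Cxcr5 were required. By this rule 868 of 27423 barcodes were members, 120, 211, 242 and 295 of them in replicates 1 to 4. They made up 14.12, 22.66, 22.08 and 19.03% of the CD62L-low CD11a-high CD4 cells of these libraries (19.47% ± 3.91, mean ± SD, n = 4) and 7.40% ± 2.77 of all CD4 cells.

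The T cells came from the islets of female NOD mice, a strain that develops autoimmune diabetes, taken at 12 weeks of age before diabetes. Live cells stained for the T cell receptor beta chain were sorted, without sorting on CD4, CD62L, CD11a or PD-1, and 4 biological replicates were captured. For each of them 5' mRNA, antibody tags and T cell receptors were sequenced, and all groups below were drawn from these same 4 suspensions, with no treatment. Whether a replicate was 1 mouse or a pool was not given in the sources used here, so p-values measure the spread between these 4 samples. Members were compared with 2 populations of the same libraries. The CD62L-high CD4 cells (4712, with 1757, 526, 1252 and 1177 in replicates 1 to 4) met the same quality, CD4, CD8 and Foxp3 limits and held at least 10 counts of the CD62L antibody, with no limit on CD11a or Il7r. The PD-1-positive cells (1587, with 337, 376, 397 and 477) met the same antibody limits as the members but held at least 1 Pdcd1 UMI, with no limit on Il7r, Il21 or Cxcr5.

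The IL-7 receptor pairs the chain encoded by Il7r with the common gamma chain encoded by Il2rg, and signals through the kinases JAK1 and JAK3 to STAT5. T cells depend on this signal for survival: naive and memory cells carry the receptor, and cells that have just been activated by antigen lower it. CD62L lets T cells enter lymph nodes and is lost on activation, while CD11a, a chain of the integrin LFA-1, is raised on antigen-experienced cells. PD-1 is an inhibitory receptor that is induced by antigen and stays high on T cells that meet antigen for a long time, such as follicular helper and exhausted cells.

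The receptors of the members are shown first because they were not used to choose them. An invariant alpha chain that joins TRAV11 to TRAJ18 marks natural killer T (NKT) cells, which see lipid antigens on CD1d. It was found in 20 members, and its junction (the third complementarity-determining region, from the conserved cysteine codon to the conserved phenylalanine codon, 45 bases) took 4 forms, which differ in 1 codon, bases 10 to 12 from the 5' end, shown in capitals.
Invariant junction in 7 members of 4 libraries: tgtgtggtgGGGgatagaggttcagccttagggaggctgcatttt
Invariant junction in 6 members of 3 libraries: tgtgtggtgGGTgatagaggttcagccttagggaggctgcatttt
Invariant junction in 5 members of 3 libraries: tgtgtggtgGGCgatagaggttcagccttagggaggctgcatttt
Invariant junction in 2 members of 1 library: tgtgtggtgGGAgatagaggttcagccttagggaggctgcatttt
All 4 forms encoded the same amino acid sequence. Other receptors were specific to a clone, that is, to the cells of 1 library with the same paired alpha (TRA) and beta (TRB) chain. The clone with the most members in each library is shown by both junctions, with the first and the last codon in capitals.
Replicate 1, TRAV3-1 with TRAJ53: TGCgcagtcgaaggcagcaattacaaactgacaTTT
Replicate 1, TRBV31 with TRBJ2-5: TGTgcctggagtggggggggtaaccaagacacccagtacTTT
Replicate 2, TRAV14D-1 with TRAJ42: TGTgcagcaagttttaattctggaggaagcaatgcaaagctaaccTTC
Replicate 2, TRBV13-3 with TRBJ2-7: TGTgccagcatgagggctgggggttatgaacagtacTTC
Replicate 3, TRAV7D-5 with TRAJ37: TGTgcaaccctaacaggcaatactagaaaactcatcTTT
Replicate 3, TRBV13-3 with TRBJ2-3: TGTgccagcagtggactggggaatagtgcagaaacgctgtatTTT
Replicate 4, TRAV6N-7 with TRAJ26: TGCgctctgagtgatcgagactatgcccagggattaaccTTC
Replicate 4, TRBV1 with TRBJ2-1: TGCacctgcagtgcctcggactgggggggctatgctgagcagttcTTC
These clones held 4 members of 7 cells, 3 of 4, 3 of 8 and 5 of 13 in replicates 1 to 4. None of them held a PD-1-positive cell, and the clone of replicate 3 held 2 CD62L-high cells.

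The members' median was 4049, 4136, 3934 and 3107 UMIs per cell in replicates 1 to 4. This lay close to the CD62L-high cells (3164 to 4150.5) and below the PD-1-positive cells (4607 to 6234.5). The median CD11a antibody count was 168 to 193 in members, 59 to 81 in CD62L-high and 341 to 431 in PD-1-positive cells, so the members' CD11a, although above the limit, was lower than that of the PD-1-positive cells in all 4 libraries. A count of the streptavidin tag, taken here as the readout of the biotinylated CD8b antibody, was held by 8.8% to 12.5% of members, 9.3% to 14.6% of CD62L-high, 9.2% to 14.8% of PD-1-positive and 60.5% to 83.8% of cells with Cd8 mRNA. A second TRB chain, which 2 cells in 1 droplet can give, was seen in 2.9% to 9.0% of members. The barcode sequence of 17 members also occurred in another library, but no 2 members of different libraries shared one. Summed levels of 8 B cell genes were 195.6 to 241 CPM (counts per 1000000 gene UMIs) in members of replicates 1, 2 and 4 and 3117 in replicate 3, where 2948 of the 3090 Ighm UMIs came from 1 barcode. They were 712 to 1257.6 in CD62L-high and 159.6 to 598.7 in PD-1-positive cells.

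The label was checked first, on genes that the rule used or that named the population, as a description with no test. Levels are CPM of the cells of a population summed within a library, always in the order of replicates 1 to 4. Il7r (chr15:9506159-9529941, GRCm38.p6) was at 996, 1005, 1205 and 1246 CPM in members. It was at 408, 374, 340.3 and 323 in CD62L-high cells, which were not chosen on it, and at 42.2, 56.2, 106 and 72.4 in PD-1-positive cells. Il7r was thus high in members in every library, as the rule demands, intermediate in CD62L-high cells and lowest in PD-1-positive cells. Pdcd1, Il21 and Cxcr5 were at 0 in members by rule. In PD-1-positive cells Il21, a cytokine gene of T cells that help B cells, was at 136, 171, 192 and 222 CPM, and Cxcr5, which draws cells into follicles, was at 64.7, 73.4, 79.3 and 50.8.

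The other label genes were named from earlier results of these data, so their levels describe the cells and support nothing. Itgb1 (chr8:128685654-128733579), the integrin beta chain shared by many receptors for matrix and endothelium, was at 679, 969.6, 1288 and 1143 CPM in members, 133, 245, 322 and 276 in CD62L-high and 562, 746, 707 and 646 in PD-1-positive cells. Members lay above CD62L-high cells without overlap, and overlapped with PD-1-positive cells through replicate 1. Cd40lg (chrX:57212143-57224042), the ligand by which helper T cells activate B cells and dendritic cells, was at 234, 219, 212 and 129.9 CPM in members, 123, 117, 112 and 86.3 in CD62L-high and 124, 132, 139 and 114 in PD-1-positive cells. It was highest in members in every library, with the smallest lead in replicate 4. Cxcr3 (chrX:101731535-101734147), the receptor for interferon-induced chemokines, was at 176, 287, 237 and 277 CPM against 18.0, 39.6, 44.2 and 44.1 in CD62L-high cells, with no overlap. The PD-1-positive cells, at 178, 226, 193 and 215, overlapped with the members, so Cxcr3 set members apart from CD62L-high cells only. After every cell was thinned to 1500 UMIs, at least 1 Cxcr3 UMI was found in 29.5% ± 6.01 of members, 2.66% ± 1.04 of CD62L-high and 26.3% ± 4.08 of PD-1-positive cells (SD, n = 4). Before thinning these shares were 54.9, 7.5 and 59.7%. Barcodes with at least 3 Cd79a UMIs and neither Cd3 mRNA nor a TRB chain, taken as B cells to show the background, had 0.69% ± 0.48 thinned and 2.35% unthinned, at median depths of 3196 to 4302 UMIs. The label genes were thus all detected in members, and Cxcr3 did not separate them from PD-1-positive cells.

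**Figure D1:**
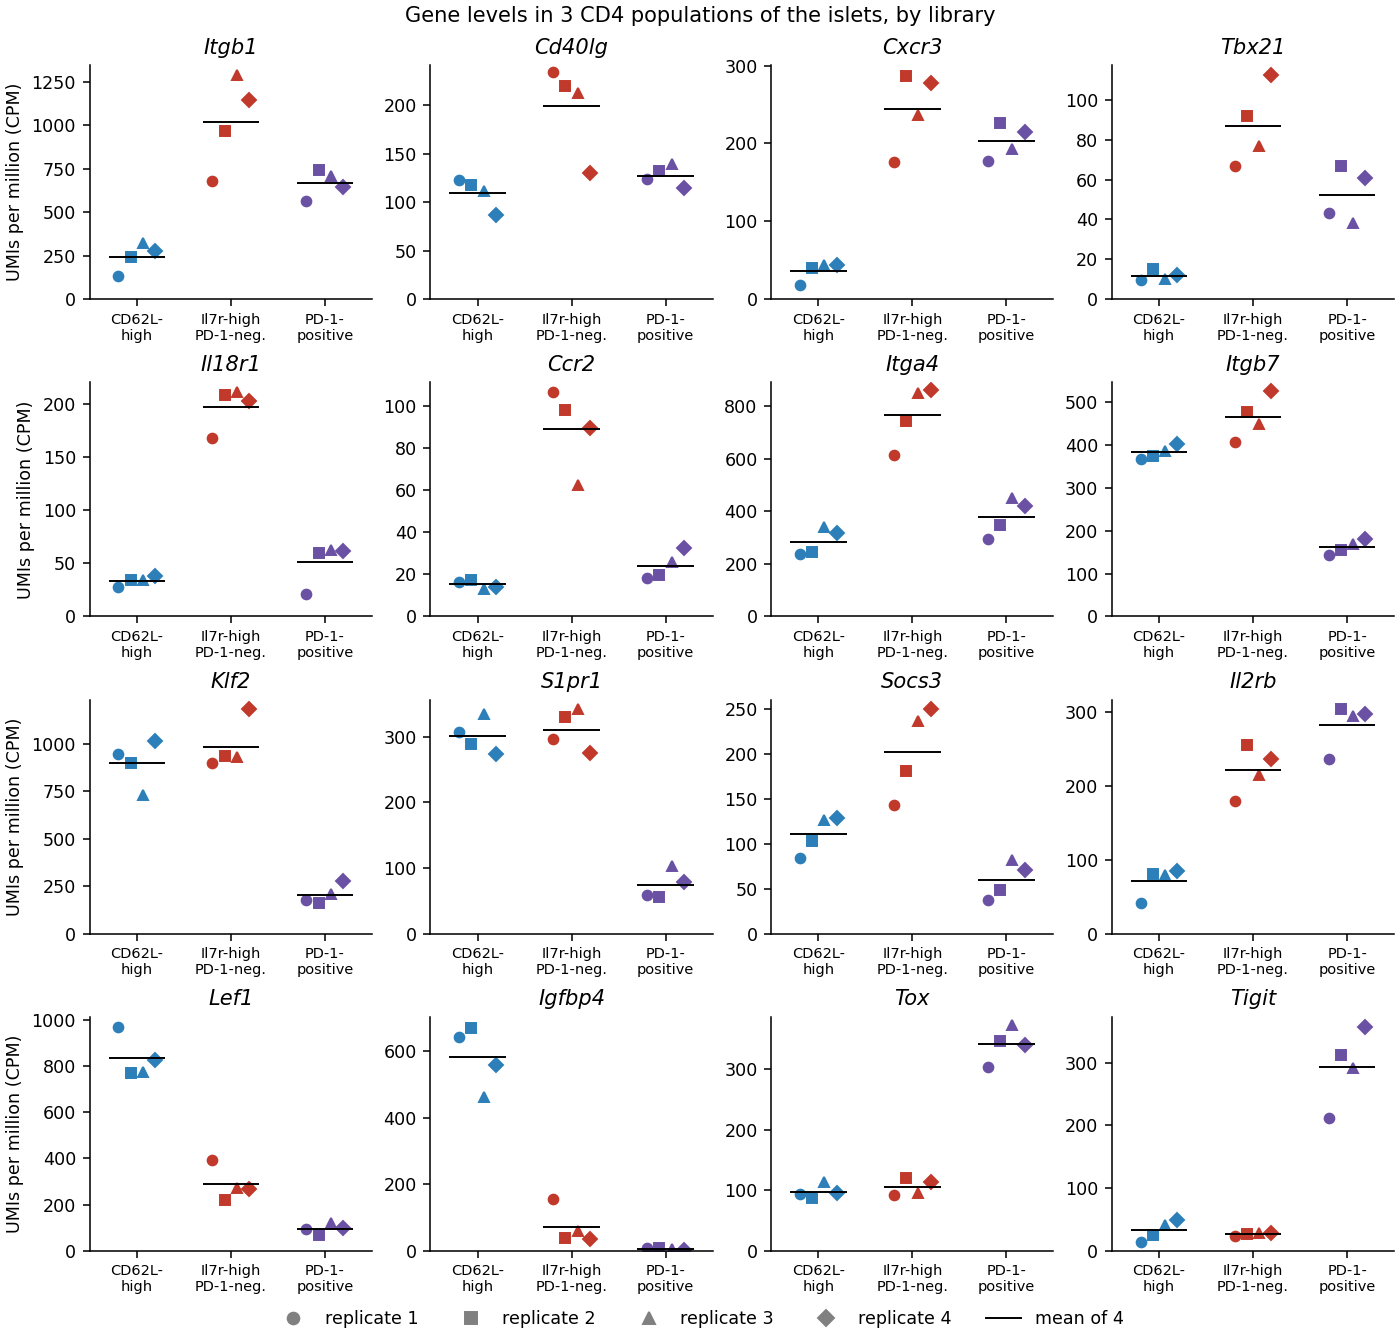
Levels in CPM (linear axes from 0) of 16 genes in CD62L-high, Il7r-high PD-1-negative and PD-1-positive CD4 cells; each symbol is 1 library (replicates 1 to 4) and the bar is the mean of 4. Cxcr3, Tbx21 and Itga4 are higher in members than in CD62L-high cells, Klf2 and S1pr1 are near the CD62L-high level, and Tox and Tigit are far below the PD-1-positive level.

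Values just inside and just outside each limit are given as a description. The 244 members with exactly 2 Il7r UMIs had 264.2 CPM Cxcr3, 1122.9 Itgb1, 199.2 Cd40lg and 120.2 Tox. The 380 cells left out for having 1 Il7r UMI had 232.7, 1101.8, 154.7 and 156.1. The 110 members with 3 CD62L counts had 204.1 CPM Cxcr3, 212.7 Cd40lg and 947.5 Klf2, and the 63 cells with 4 had 196.3, 141.4 and 1339.0. The 118 members with CD11a counts within 20 of the limit had 162 CPM Cxcr3, 957.6 Itgb1, 173.9 Cd40lg and 1203.0 Klf2, and the 115 cells up to 20 counts under it had 106.3, 766.1, 133.5 and 956.4. Cxcr3 and Itgb1 were thus close across the Il7r limit, where Cd40lg was higher and Tox lower inside. Across the CD11a limit Cxcr3, Itgb1, Cd40lg and Klf2 were all higher inside. Across the CD62L limit Cd40lg was higher and Klf2 lower inside. For Pdcd1 no member lies next to the limit other than at 0: all 868 members had 106.5 CPM Tox and 1064.7 Itgb1, and the 93 cells with 1 Pdcd1 UMI that met all other limits had 145.4 and 1359.8. Other genes were close across this limit: Klf2 was at 1000.1 CPM in these members and 994.1 in the 93 cells. Cxcr3 was at 252.6 and 269.6, and Cd40lg at 193.7 and 185.2.

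Members and CD62L-high CD4 cells were compared to ask how these CD62L-low cells, which share Il7r mRNA with the CD62L-high population, differ from it. Members had higher mRNA of most listed type 1 helper (Th1) genes and most listed S100, annexin and cytoskeleton genes, and lower mRNA of most listed naive T cell genes, while the tissue exit genes S1pr1 and Klf2 did not pass the test. Of 10642 genes tested on UMI sums (edgeR's quasi-likelihood test with the library as block, Benjamini-Hochberg adjusted p under 0.05), 870 were higher in members (8.18%) and 752 lower (7.07%). Differences are given as log2 fold change ± SE, and the median over all tested genes was −0.008.

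Of 18 tested Th1 genes 15 were higher and none lower, with a median difference of 2.39. Tbx21, which encodes the Th1 master regulator T-bet, was at 67.0, 91.8, 76.7 and 112 CPM in members and 9.6, 15.2, 9.88 and 12.4 in CD62L-high cells. All member libraries lay above all CD62L-high libraries, a difference of 2.89 ± 0.13 (adjusted p = 1.2e-11). Ifng, the interferon gamma gene, was at 94.2, 103, 113 and 150.5 against 8.95, 10.3, 12.6 and 23.0 CPM, again without overlap (3.04 ± 0.17, adjusted p = 1.2e-07). Ccl5, a chemokine gene of effector and memory T cells, was at 561, 1100.1, 1044 and 1426 against 46.0, 44.9, 248 and 219.6 CPM (3.11 ± 0.43, adjusted p = 0.0046), a call that a fit of these 2 populations alone did not reach (3.14, adjusted p = 0.055). Receptors of Th1 and memory cells went with them: Il18r1, a chain of the IL-18 receptor, by 2.53 ± 0.21 (adjusted p = 1.1e-04), its partner Il18rap by 3.45 ± 0.24 (adjusted p = 4.2e-09) and Cxcr6, a receptor of tissue T cells, by 3.63 ± 0.38 (adjusted p = 0.0011). Hopx, which supports survival of Th1 effector cells, was higher by 2.95 ± 0.19 (adjusted p = 9.9e-10), and Runx2, a transcription factor of memory T cells, by 2.53 ± 0.17 (adjusted p = 1.5e-08). Esm1, which encodes a secreted proteoglycan, was also among the 10 largest, at 41.6, 45.9, 94.6 and 56.1 against 1.30, 3.80, 6.70 and 9.05 CPM (3.58 ± 0.24, adjusted p = 4.4e-08). The Th1 genes named here did not overlap between these groups, but they were picked for large differences or low adjusted p, so this adds no support.

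Of 20 genes of the S100, annexin and cytoskeleton group 15 were higher and 1 lower, with a median of 0.82. Ahnak, a giant scaffold protein beneath the membrane, was at 485, 671, 700.3 and 699.5 against 125, 180.3, 216 and 185 CPM (1.86 ± 0.06, adjusted p = 7.6e-14). S100a4 and S100a6, calcium-binding proteins of activated and memory T cells, were higher by 2.18 ± 0.10 and 1.88 ± 0.07. Members lay above CD62L-high cells in every library for these 3 genes. Of 19 genes of memory and effector cells 12 were higher and 2 lower (median 1.05). Cd44, the adhesion receptor that marks antigen-experienced T cells, was at 168, 179.5, 149 and 169 against 49.0, 62.4, 60.9 and 58.3 CPM (1.52 ± 0.08, adjusted p = 3.6e-11). Id2, a regulator of effector differentiation, was higher by 1.91 ± 0.13 (adjusted p = 8.9e-07). The 2 lower genes were Cd27, a costimulatory receptor lost with differentiation, and Eomes, a transcription factor of cytotoxic and memory cells.

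Genes of naive and stem-like T cells went the other way: 11 of 18 were lower in members and 1 was higher, with a median of −1.42. Lef1, a transcription factor of naive T cells, was at 391, 218, 274 and 268 CPM in members and 969.6, 773, 776 and 826 in CD62L-high cells (−1.58 ± 0.15, adjusted p = 3.2e-04). Members were below CD62L-high cells in every library, and replicate 1 was the highest of the members. Igfbp4, a secreted binding protein of naive T cells, was at 154, 37.6, 58.8 and 36.4 against 643, 669.5, 461 and 559 CPM (−3.20 ± 0.37, adjusted p = 0.0019), and Bach2, a repressor that keeps T cells undifferentiated, was at 47.1, 59.5, 37.8 and 36.4 against 167, 151, 147 and 133 (−1.75 ± 0.11, adjusted p = 1.4e-09). Foxp1, a keeper of quiescence, Pdlim4 and Treml2 differed by −0.85, −2.78 and −1.91. The higher gene was Slamf6, a receptor of stem-like exhausted and follicular T cells, at 243, 214, 355 and 332 against 139, 147, 181 and 168 CPM (0.84 ± 0.08, adjusted p = 5.3e-07), a call lost against CD62L-high cells with at least 2 Il7r UMIs (0.63, adjusted p = 0.058). Tcf7, which encodes TCF-1, was at 317, 339, 373 and 495 against 374, 397, 352 and 427 CPM, overlapping levels with a difference of −0.03 ± 0.11 (adjusted p = 0.92).

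The 10 largest lower values were all genes of B cells, antigen presentation or myeloid cells: Cxcl9, Lyz2, Apoe, Ccl8, Bank1, H2-Aa, H2-DMb2, H2-Eb1, H2-Ab1 and Cd79a. Cd79a, a B cell receptor subunit, was at 21.7, 17.7, 17.9 and 34.4 CPM in members and 209.6, 284, 228 and 199 in CD62L-high cells, and 7 of 8 B cell genes were lower in members. Of 9 myeloid genes 2 were lower, and their summed level was 163.4 to 727.1 CPM in members against 879.5 to 1244.7. How much these foreign transcripts in the CD62L-high barcodes add to the count of lower genes was not tested, but without barcodes that held at least 2 UMIs of other cell types 647 genes were higher and 464 lower, and Lef1 differed by −2.02.

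Members and PD-1-positive CD62L-low cells were compared to ask how cells with the same CD62L and CD11a limits differ when PD-1 is absent and Il7r present. Members had much higher mRNA of the tissue exit genes Klf2 and S1pr1, of several adhesion and migration receptors and of interferon-response genes, and much lower mRNA of inhibitory receptors, of follicular helper genes and of cell division genes. Of the same 10642 genes 2185 were higher in members (20.5%) and 2340 lower (22%), with a median of −0.001 over all genes. PD-1-positive cells were chosen on Pdcd1 mRNA without a limit on Il7r, Il21 or Cxcr5, and their deeper libraries and dividing cells move with the comparison. After thinning to 1500 UMIs 755 genes were higher and 697 lower, and without cells holding at least 2 UMIs of 12 mitotic and S phase genes 1231 were higher and 1320 lower.

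**Figure D2:**
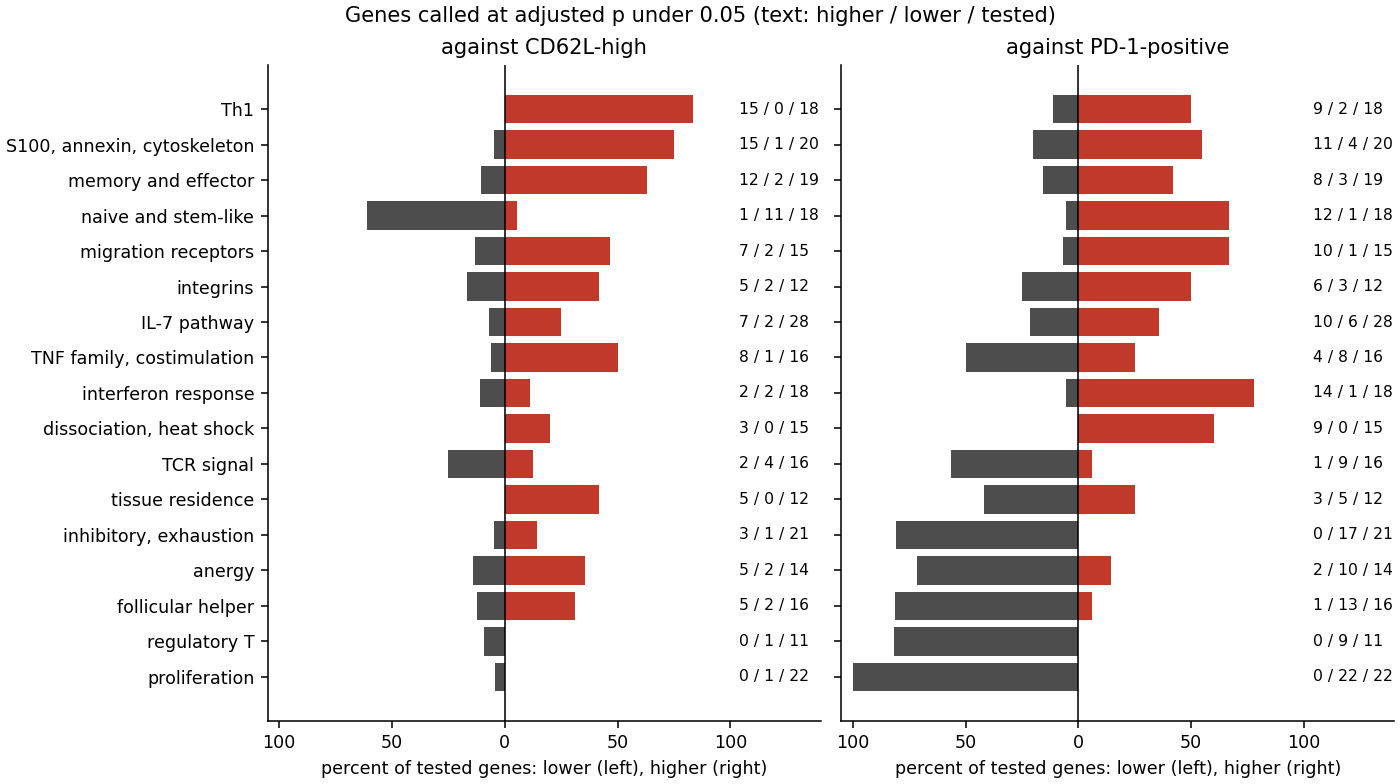
Share of the tested genes of 17 lists called higher (right) or lower (left) in members at adjusted p under 0.05, against CD62L-high cells and against PD-1-positive cells; the numbers give higher, lower and tested genes. Th1 genes are mostly higher against CD62L-high cells (15 of 18), naive genes are lower against them (11 of 18) but higher against PD-1-positive cells (12 of 18), and all 22 proliferation genes are lower against PD-1-positive cells.

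Klf2, a transcription factor that keeps T cells quiescent and switches on their exit receptors, was at 900.0, 935, 930.4 and 1184 CPM in members, 946, 899, 731 and 1019 in CD62L-high and 175, 159, 210.0 and 276 in PD-1-positive cells. Its target S1pr1, the receptor by which T cells leave tissue toward blood and lymph, was at 297, 329.8, 343 and 276 CPM in members, 307, 289, 334 and 274 in CD62L-high and 58.9, 55.9, 103 and 78.8 in PD-1-positive cells. For both genes members and CD62L-high cells overlapped, with differences of 0.13 ± 0.14 (adjusted p = 0.63) and 0.04 ± 0.14 (adjusted p = 0.91), while every member library lay above every PD-1-positive library, by 2.37 ± 0.15 (adjusted p = 1.1e-05) and 2.18 ± 0.15 (adjusted p = 5.6e-06). Against the CD62L-high cells with at least 100 CD11a counts, S1pr1 was higher in members by 0.55 (adjusted p = 0.0098). Thinned to 1500 UMIs, 60.3% ± 2.93 of members, 54.8% ± 4.01 of CD62L-high and 21.0% ± 3.56 of PD-1-positive cells held a Klf2 UMI (SD, n = 4). Unthinned shares were 80.1, 76.5 and 38.9%. The B cell barcodes do not serve as background here, since B cells express Klf2 (58.7% thinned).

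Of the 18 naive and stem-like genes 12 were higher in members than in PD-1-positive cells and 1 lower, with a median of 1.29. Lef1 was at 93.7, 67.8, 118 and 98.1 CPM in PD-1-positive cells, below every member library (1.68 ± 0.16, adjusted p = 8.4e-05), so the members stood between the comparison populations. Igfbp4, the largest difference with 7.09, 7.43, 5.20 and 1.46 CPM in PD-1-positive cells, was higher by 3.72 ± 0.55 (adjusted p = 0.0019), a call lost without barcodes that held UMIs of other cell types (2.99, adjusted p = 0.097), and Satb1, a chromatin organizer of naive T cells, by 2.18 ± 0.25 (adjusted p = 4.5e-04). The lower gene was Xcl1, a chemokine gene. Other genes among the 10 largest higher values were St3gal6 (3.21 ± 0.17, adjusted p = 4.0e-11), a sialyltransferase that builds selectin ligands, Trat1 (2.78), an adaptor that stabilizes the T cell receptor, Ifngr1 (2.41), a chain of the interferon gamma receptor, and Cd7 (2.40). St3gal6 was at 61.6, 66.8, 71.7 and 78.7 CPM in members, 26.1, 25.1, 22.1 and 26.9 in CD62L-high and 4.93, 9.81, 7.80 and 9.63 in PD-1-positive cells, with no overlap, and was thus highest in members. Sidt1, an RNA transporter gene, Pde3b, a phosphodiesterase, Scml4, a polycomb-group gene, and the interferon-induced Ifi208 and Tgtp1 made up the rest, with differences of 2.5 to 2.73.

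Of the 18 Th1 genes 9 were higher in members than in PD-1-positive cells and 2 lower (median 1.02). Il18r1 was at 168, 209, 211 and 203 CPM in members and 21.0, 59.8, 62.4 and 61.6 in PD-1-positive cells (2.07 ± 0.21, adjusted p = 8.8e-05), and Hopx at 52.5, 50.1, 46.8 and 57.1 against 7.09, 11.9, 11.7 and 13.4 (2.30 ± 0.18, adjusted p = 5.4e-09). Both lay above PD-1-positive cells without overlap. Tbx21, at 43.2, 66.9, 38.0 and 60.7 CPM in PD-1-positive cells, was higher by 0.84 ± 0.12 (adjusted p = 7.8e-06), a call lost in the comparison with Il7r-positive cells described further on (0.66, adjusted p = 0.083). Ifng, at 66.3, 132, 132 and 132 CPM there, overlapped with the members and did not pass (0.07 ± 0.14, adjusted p = 0.73). The 2 lower genes were Bhlhe40 (−1.62 ± 0.16, adjusted p = 3.4e-05) and the chemokine gene Ccl4.

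Inhibitory receptors and exhaustion factors were lower in 17 of 21 genes and higher in none, with a median of −1.45. Tox, a transcription factor of exhausted and follicular helper T cells, was at 92.4, 120.0, 94.6 and 113 CPM in members, 93.1, 87.5, 114 and 96.0 in CD62L-high and 304, 347, 372 and 339 in PD-1-positive cells. Members overlapped with CD62L-high cells (0.10 ± 0.09, adjusted p = 0.57) and lay below all PD-1-positive libraries (−1.60 ± 0.09, adjusted p = 4.4e-11). The receptor Tigit was at 23.5, 26.1, 28.9 and 27.6 CPM against 212, 312, 292 and 356 (−3.44 ± 0.26, adjusted p = 2.3e-05), Lag3 at 47.1, 24.0, 14.9 and 33.4 against 258, 398, 347 and 401 (−3.59 ± 0.29, adjusted p = 7.0e-05), and Cd200 at 56.1, 35.5, 49.8 and 42.3 against 348, 434, 378 and 347 (−2.98 ± 0.14, adjusted p = 8.7e-09). Against CD62L-high cells 3 of these 21 genes were higher (Maf, Prdm1 and Batf) and 1 lower (Havcr2, near 0 in members). Cells chosen for the absence of Pdcd1 thus also held less mRNA of Tigit, Lag3 and Cd200 than the PD-1-positive cells.

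Members were chosen without Il21 and Cxcr5 UMIs, while 140, 148, 171 and 226 of the 337, 376, 397 and 477 PD-1-positive cells held neither. Against the PD-1-positive cells that held neither, 1458 genes were higher in members and 1533 lower. The values of the follicular helper genes in that fit are not given here, and those below are against all PD-1-positive cells. Of 16 follicular helper genes 13 were lower and 1, St8sia1, was higher (median −2.08). Bcl6, their master regulator, was at 16.3, 18.8, 14.9 and 25.6 CPM against 76.1, 95.1, 98.2 and 68.6 (−2.05 ± 0.17, adjusted p = 7.2e-09), and Hif1a, a hypoxia-response factor, at 159, 182, 173 and 171 against 494, 567, 607 and 599 (−1.63 ± 0.07, adjusted p = 4.8e-12). Of 14 anergy-associated genes 10 were lower and 2 higher (median −1.12), with Izumo1r, which encodes folate receptor 4, at 161, 135, 181 and 160.4 against 344, 346, 414 and 402 CPM (−1.16 ± 0.08, adjusted p = 1.4e-09) and Nfatc1 different by −1.02. Of 11 regulatory T cell genes 9 were lower and none higher (median −1.45), Foxp3 itself being at 0 by rule in both. Of 16 genes of recent receptor signals 9 were lower and 1 higher (median −0.95), with Egr2 at 5.43, 3.13, 7.97 and 6.89 against 61.3, 52.0, 43.2 and 57.8 CPM and Dusp4 at 7.24, 15.7, 2.99 and 5.90 against 103, 172, 101 and 125. Dusp2, a phosphatase of activated cells, was the higher one (0.58 ± 0.11, adjusted p = 4.7e-04).

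All 22 proliferation genes were lower in members (median −3.53), with Mcm3, a replication helicase subunit, at 43.5, 37.6, 30.9 and 48.2 against 199, 148, 163 and 201 CPM (−2.06 ± 0.12, adjusted p = 9.4e-11). The Mcm3 call was lost without barcodes with UMIs of other cells (−1.18, adjusted p = 0.13) and without mitotic cells, a setting that leaves out cells on such genes (−0.02, adjusted p = 0.98). Against CD62L-high cells 1 of 22 was lower and none higher. After thinning, 41.96% ± 0.58 of members and 52.82% ± 4.08 of PD-1-positive cells held at least 2 UMIs of these 22 genes, a difference of −10.86 percentage points (SD 3.97) with the same sign in 4 of 4 libraries. In the exact two-sided permutation test 2 of 16 sign assignments were as extreme, the fewest that 4 pairs allow. Some of these genes, such as Tubb5 and Hmgb2, are also made by resting cells, and this definition marked 80.61% of members before thinning. With 12 mitotic and S phase genes, a definition chosen after seeing these values, the thinned shares were 0.81% ± 0.59 in members and 13.1% ± 3.26 in PD-1-positive cells. Unthinned they were 5.02% and 24.1%, with 10% in the members of replicate 1. Further genes with the largest lower values were Penk, an enkephalin precursor, at 12.7, 3.13, 3.98 and 2.95 against 337, 245, 153 and 233 CPM, Nrgn, a calmodulin-binding protein, at 1.81, 1.04, 0 and 5.90 against 75.8, 217, 50.4 and 78.5, and Spp1, which encodes osteopontin, with no UMI in members and 77.0, 147, 93.6 and 62.4 CPM in PD-1-positive cells.

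Of 18 interferon-response genes 14 were higher in members than in PD-1-positive cells and 1 lower (median 1.15), while 2 were higher and 2 lower against CD62L-high cells (median 0.03). Ly6a, the interferon-induced surface protein Sca-1, was at 773, 656, 879.6 and 1253 CPM in members, 439, 387, 521 and 698 in CD62L-high and 165, 185, 242 and 271 in PD-1-positive cells. It was highest in members in every library, by 0.79 ± 0.06 (adjusted p = 2.0e-08) and 2.12 ± 0.06 (adjusted p = 2.2e-14). Gbp7, a guanylate-binding protein of the interferon gamma response, was at 129, 132, 124 and 155 CPM in members, 102, 109, 149 and 169.7 in CD62L-high and 47.5, 45.8, 59.5 and 56.9 in PD-1-positive cells, and Irf1, an interferon response factor, differed from PD-1-positive cells by 0.82 ± 0.07 (adjusted p = 1.8e-08). Among dissociation and heat shock genes 9 of 15 were higher against PD-1-positive cells and 3 against CD62L-high cells, and none was lower. Their summed level was 10831.2 to 17763.5 CPM in members, 8001.7 to 13218.1 in CD62L-high and 8042.5 to 10091.0 in PD-1-positive cells. The heat shock gene Dnajb1, at 789.5, 1101, 658 and 885 CPM in members, was above both populations in every library (0.86 ± 0.12, adjusted p = 0.0014 and 1.63 ± 0.12, adjusted p = 9.8e-06). Whether cell isolation had a part in other differences of the members was not tested.

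Of 28 genes of the IL-7 pathway besides Il7r, 7 were higher and 2 lower in members than in CD62L-high cells (median −0.03), and 10 were higher and 6 lower than in PD-1-positive cells (median 0.18). The partner chain Il2rg was at 804, 785, 723 and 760.5 CPM in members, 679.8, 733, 704 and 729.9 in CD62L-high and 469.7, 481, 486 and 536 in PD-1-positive cells. It did not pass the test against the former and was higher than the latter by 0.73 ± 0.05 (adjusted p = 2.2e-09). The kinase Jak1 likewise passed only against PD-1-positive cells (0.50 ± 0.05, adjusted p = 2.3e-07). Unlike Il2rg it was below CD62L-high cells in 4 of 4 libraries (−0.15 ± 0.05, adjusted p = 0.059). Jak3 instead was higher than in CD62L-high cells (0.64 ± 0.11, adjusted p = 5.6e-04) and did not pass against PD-1-positive cells (−0.13 ± 0.11, adjusted p = 0.39). The signal carrier Stat5a differed by −0.13 and −0.55 and Stat5b by −0.03 and 0.21, the first value against CD62L-high and the second against PD-1-positive cells in each pair. Of these 4 values the Stat5a and Stat5b differences from PD-1-positive cells passed.

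Receptors that share the pathway's chains split by population. Il2rb, the chain that gives memory T cells their response to IL-15 and IL-2, was at 179, 256, 215 and 237 CPM in members, 41.4, 80.6, 79.7 and 84.1 in CD62L-high and 236, 304, 294 and 298 in PD-1-positive cells. Members were above CD62L-high cells in every library (1.66 ± 0.10, adjusted p = 1.1e-08) and only slightly below PD-1-positive cells (−0.27 ± 0.10, adjusted p = 0.031, a call lost in many alternatives, among them the fit without the library block, adjusted p = 0.38). Il4ra, a receptor chain for IL-4, was at 59.8, 51.1, 36.9 and 36.4 CPM in members, 90.3, 94.7, 88.7 and 79.9 in CD62L-high and 19.4, 21.4, 15.3 and 17.5 in PD-1-positive cells, so the members stood between the populations without overlap (−0.99 ± 0.12, adjusted p = 4.0e-06 and 1.38 ± 0.14, adjusted p = 1.8e-07). The latter call was lost after thinning (0.73, adjusted p = 0.063). It was also lost without cells holding at least 2 unthinned UMIs of the 22 proliferation genes (0.18, adjusted p = 0.90). That setting left only 22 to 75 members per library. Il2ra, the high-affinity IL-2 receptor chain of activated and regulatory T cells, did not pass against CD62L-high cells and was lower than in PD-1-positive cells (−1.48 ± 0.40, adjusted p = 0.018). Il9r was scarce, at 9.05, 16.7, 4.98 and 9.84 CPM in members, and was higher by 1.38 ± 0.42 and 2.13 ± 0.46.

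Feedback genes of cytokine signalling differed as well. Socs3, a damper that STAT proteins induce, was at 143, 181, 236 and 249.9 CPM in members, 84.3, 103, 127 and 129 in CD62L-high and 37.6, 48.8, 81.9 and 71.2 in PD-1-positive cells. Members were highest in every library, by 0.86 ± 0.09 (adjusted p = 5.7e-07) and 1.87 ± 0.09 (adjusted p = 1.2e-11). Cish, a STAT5 target, was higher than in CD62L-high cells (1.00 ± 0.25, adjusted p = 0.021) and did not pass against PD-1-positive cells (0.62 ± 0.25, adjusted p = 0.068). Socs2 was higher by 1.10 ± 0.22 (adjusted p = 0.0012) and lower than in PD-1-positive cells (−0.82 ± 0.19), and Socs1 passed neither test. Among survival genes, Bcl2, a known product of IL-7 signalling, was at 88.7, 92.9, 71.7 and 103 CPM in members, 135, 162, 94.6 and 115 in CD62L-high and 53.9, 71.4, 91.0 and 62.2 in PD-1-positive cells and passed neither test (−0.50 ± 0.26, adjusted p = 0.27 and 0.45 ± 0.27, adjusted p = 0.24). Both passed without replicate 3 (−0.54, adjusted p = 0.0073, and 0.69, adjusted p = 5.3e-04) and when only the 2 populations were fitted (−0.49, adjusted p = 0.0016, and 0.45, adjusted p = 0.036). The Bcl2 difference from CD62L-high cells also passed after thinning (−0.63, adjusted p = 0.019) and without barcodes with UMIs of other cells (−0.55, adjusted p = 0.0029). Mcl1, another survival protein, was higher than in PD-1-positive cells by 0.46 ± 0.06 (adjusted p = 5.3e-06), while its relative Bcl2l1, which encodes BCL-XL, was lower (−1.45 ± 0.28). The death-promoting Bcl2l11, which encodes BIM, was higher by 0.89 ± 0.15 (adjusted p = 8.7e-05). Foxo1, which drives Il7r and Klf2 transcription, was at 178, 188, 165 and 182 CPM in members, 233, 192, 241 and 256 in CD62L-high and 149.8, 143, 141 and 149 in PD-1-positive cells, between the populations (−0.37 ± 0.08, adjusted p = 0.0015 and 0.39 ± 0.08, adjusted p = 4.3e-04).

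**Figure D3:**
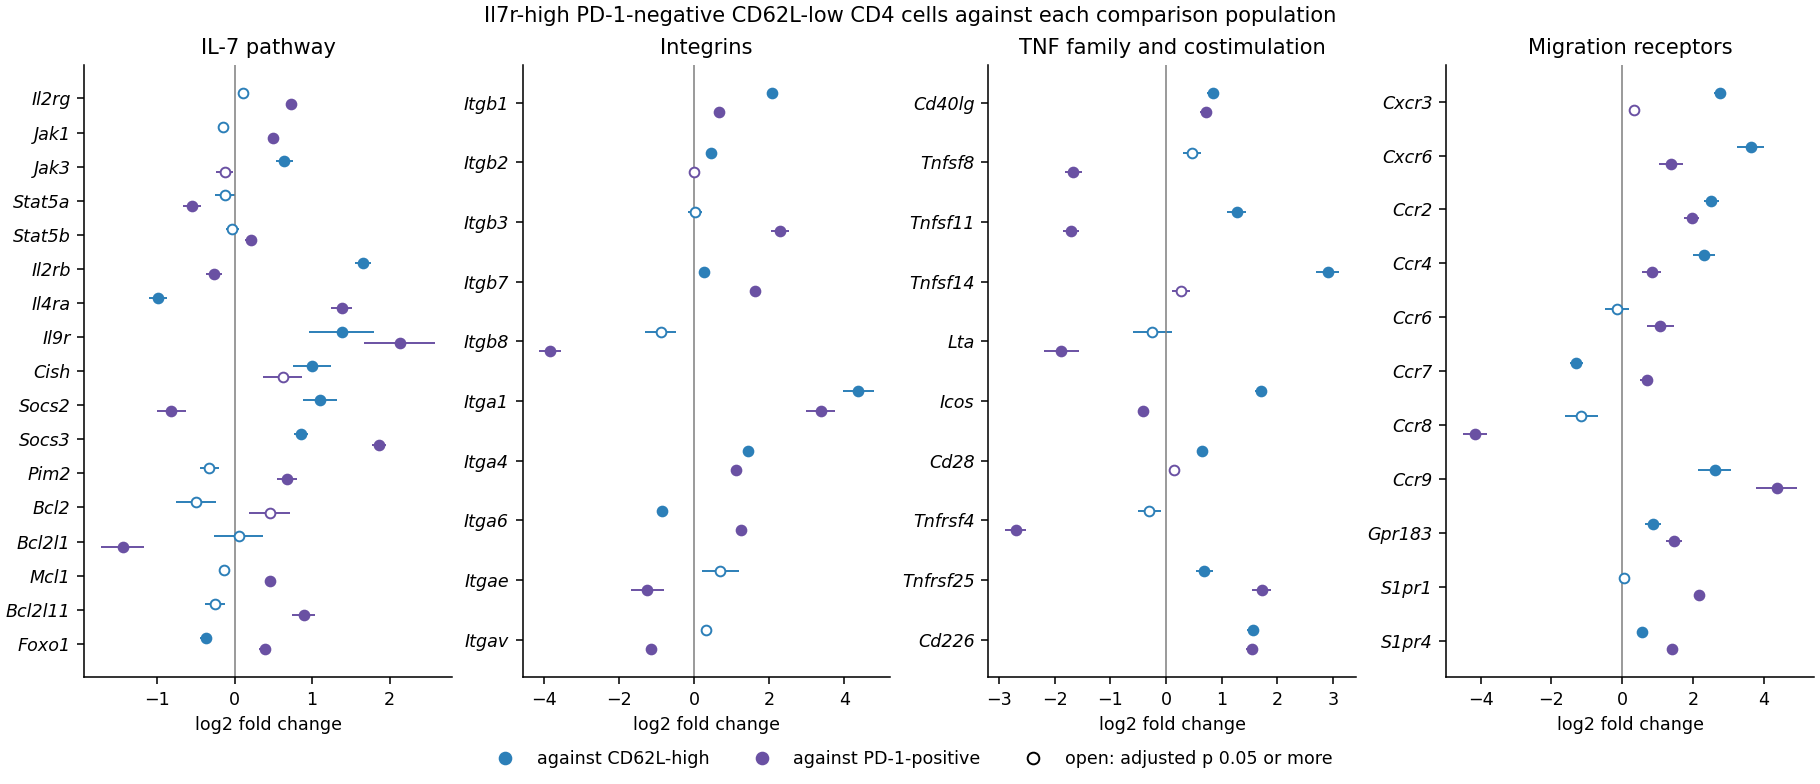
Log2 fold change ± SE of Il7r-high PD-1-negative cells against CD62L-high cells (blue) and against PD-1-positive cells (purple) for genes grouped by role; open symbols have an adjusted p of 0.05 or more. Socs3, Itga4, Itga1, Ccr2 and Cd226 lie to the right of 0 in both comparisons, while Il4ra, Itga6, Foxo1 and Ccr7 are negative against CD62L-high cells and positive against PD-1-positive cells.

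Among 12 tested integrin chains 5 were higher and 2 lower than in CD62L-high cells (median 0.30), and 6 higher and 3 lower than in PD-1-positive cells (median 0.33). Itga4, which with Itgb1 forms the VCAM-1 receptor VLA-4 and with Itgb7 a gut homing receptor, was at 614, 741, 849 and 859 CPM in members, 238, 243, 340.3 and 316 in CD62L-high and 292, 348, 449 and 418 in PD-1-positive cells. Members were highest in every library without overlap, by 1.43 ± 0.06 (adjusted p = 1.1e-12) and 1.12 ± 0.06 (adjusted p = 1.2e-11). Itgb7 was at 407, 477, 448 and 527 CPM in members, 368, 374, 387 and 402 in CD62L-high and 142, 155, 169 and 182 in PD-1-positive cells, close to CD62L-high cells (0.27 ± 0.06, adjusted p = 0.0042) and far above PD-1-positive cells (1.62 ± 0.06, adjusted p = 6.9e-13). The small difference from CD62L-high cells was 0.08 and did not pass after thinning. Itga1, the collagen receptor chain of tissue-resident T cells, was at 14.5, 23.0, 18.9 and 20.7 CPM in members and at most 3.27 in any other sum (4.38 ± 0.40, adjusted p = 1.5e-07 and 3.37 ± 0.38, adjusted p = 6.3e-07). Itga6, a laminin receptor chain, stood between the populations, at 90.5, 73.1, 97.6 and 98.4 CPM in members, 184, 160.1, 146 and 163 in CD62L-high and 49.0, 30.6, 38.0 and 47.3 in PD-1-positive cells (−0.85 ± 0.11, adjusted p = 2.6e-05 and 1.24 ± 0.12, adjusted p = 3.8e-07).

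Some chains marked the PD-1-positive cells instead. Itgb8, a chain that activates TGF-beta, was at 1.81, 4.18, 3.98 and 2.95 CPM in members and 42.2, 54.4, 50.4 and 52.5 in PD-1-positive cells (−3.83 ± 0.29, adjusted p = 3.7e-09), and Itgav, its partner, was lower as well (−1.15 ± 0.13). Itgb3, another partner of Itgav, was higher in members, at 30.8, 40.7, 22.9 and 22.6 against 4.01, 6.84, 5.52 and 8.46 CPM (2.30 ± 0.24, adjusted p = 2.4e-07). Itgae, the chain of resident cells in epithelia, was at 9.05, 6.26, 5.98 and 3.94 CPM in members and did not pass against CD62L-high cells. Tissue residence genes as a group were higher in 5 of 12 against CD62L-high cells with none lower, and higher in 3 and lower in 5 against PD-1-positive cells. Summed over all members, Itga1 and Cxcr6 were thus higher than in CD62L-high cells, while Itgae was scarce. S1pr1, which resident T cells are known to lose, was kept. Itga1 was itself scarce, with 70 UMIs in members against 21 of Itgae. Whether the same cells held these mRNAs was not tested.

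Ligands and receptors of T cell help were divided in the same way. Of 16 genes 8 were higher and 1 lower than in CD62L-high cells (median 0.55), and 4 were higher and 8 lower than in PD-1-positive cells (median −0.29). Besides Cd40lg, the ligand Tnfsf11, which encodes RANKL, was at 52.5, 37.6, 32.9 and 40.3 CPM in members, 14.5, 22.4, 17.6 and 13 in CD62L-high and 152, 162, 119.6 and 125 in PD-1-positive cells, between the populations (1.27 ± 0.17, adjusted p = 2.0e-05 and −1.71 ± 0.14, adjusted p = 9.8e-09). Tnfsf14, which encodes LIGHT, was higher than in CD62L-high cells (2.90 ± 0.21, adjusted p = 8.6e-09) and close to PD-1-positive cells (0.27 ± 0.17, adjusted p = 0.23). Tnfsf8, the CD30 ligand, at 114, 75.2, 85.7 and 80.7 against 265, 369, 333 and 219.5 CPM, and Lta, a lymphotoxin gene, at 36.2, 17.7, 9.96 and 29.5 against 56.7, 125, 80.6 and 83.5, were lower than in PD-1-positive cells (−1.66 ± 0.15 and −1.88 ± 0.31). Ltb, the other lymphotoxin chain, was higher than there (0.56 ± 0.05, adjusted p = 5.9e-08).

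Of the receptors, Icos, a costimulator of follicular helper cells, was at 165, 214, 156 and 189.9 CPM in members, 38.0, 56.7, 68.1 and 58.9 in CD62L-high and 206, 257, 272 and 285 in PD-1-positive cells (1.71 ± 0.11, adjusted p = 2.4e-08 and −0.41 ± 0.10, adjusted p = 0.0045). The latter call was lost without the library block (adjusted p = 0.072) and without replicate 4 (adjusted p = 0.059). Cd28 was higher than in CD62L-high cells (0.64 ± 0.07, adjusted p = 2.3e-06) and overlapped with PD-1-positive cells (0.15 ± 0.07, adjusted p = 0.1). Cd226, the activating competitor of Tigit for shared ligands, was at 105, 108, 78.7 and 105 CPM in members, 34.0, 33.9, 31.1 and 35.3 in CD62L-high and 43.5, 33.3, 31.8 and 36.2 in PD-1-positive cells. It was highest in members in every library, by 1.56 ± 0.11 (adjusted p = 3.6e-09) and 1.55 ± 0.11 (adjusted p = 1.3e-09), where Tigit was lower than in PD-1-positive cells. Tnfrsf25, the death receptor 3 gene, was likewise highest in members (0.69 ± 0.15, adjusted p = 0.004 and 1.72 ± 0.17, adjusted p = 2.0e-07). Tnfrsf4, which encodes OX40, and Tnfrsf9, which encodes 4-1BB, were lower than in PD-1-positive cells (−2.70 ± 0.19 and −3.35 ± 0.55).

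Of 15 tested migration receptors 7 were higher and 2 lower than in CD62L-high cells (median 0.15), and 10 were higher and 1 lower than in PD-1-positive cells (median 1.07). Ccr2, a receptor for inflammatory chemokines, was at 107, 98.1, 62.8 and 89.5 CPM in members, 16.6, 17.5, 12.9 and 13.9 in CD62L-high and 18.2, 19.6, 26.0 and 32.4 in PD-1-positive cells, with members highest in every library (2.52 ± 0.21, adjusted p = 2.4e-06 and 1.96 ± 0.20, adjusted p = 6.1e-06). After thinning the second difference was 0.88. Cxcr6 was at 206, 219, 163 and 194 CPM in members and 33.9, 69.0, 109 and 118 in PD-1-positive cells, 1.38 ± 0.33 (adjusted p = 0.015), a call lost after thinning (0.53, adjusted p = 0.24) and without replicate 2 (1.24, adjusted p = 0.10). Ccr9, a gut homing receptor, was scarce at 29.0, 16.7, 7.97 and 14.8 CPM but above both populations (2.61 ± 0.46, adjusted p = 6.7e-04 and 4.37 ± 0.58, adjusted p = 9.8e-06). Ccr7, the lymph node homing receptor, was at 221, 108, 116 and 143 CPM in members, 383, 359, 330.5 and 313 in CD62L-high and 148, 101, 68.9 and 72.1 in PD-1-positive cells, below CD62L-high cells (−1.29 ± 0.17, adjusted p = 0.0019) and overlapping with PD-1-positive cells although higher in 4 of 4 libraries (0.69 ± 0.18, adjusted p = 0.019). Gpr183, a receptor for oxysterols, and S1pr4, a further sphingosine phosphate receptor, were above both, by 0.87 and 1.47 and by 0.56 and 1.42. Gpr132 was higher than in PD-1-positive cells (1.52 ± 0.09, adjusted p = 9.4e-11) and did not pass against CD62L-high cells. The 1 lower receptor, Ccr8, was at 3.62, 3.13, 0 and 6.89 CPM in members and 42.2, 80.6, 46.8 and 77.0 in PD-1-positive cells (−4.16 ± 0.33, adjusted p = 8.9e-08).

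Because Il7r was limited in members alone, both comparisons were repeated with comparison cells that also held at least 2 Il7r UMIs. Among PD-1-positive cells 31, 39, 70 and 54 met this. Against these cells 745 genes were called, 346 higher and 399 lower. Klf2 differed by 1.03 (adjusted p = 0.061) and S1pr1 by 1.23 (adjusted p = 0.082), so both calls were lost, as were those of Cd40lg (0.31), Itgb1 (0.17), Ly6a (0.72), Cd226 (0.39) and Itga1 (0.97) and, among the lower genes, Bcl6. The inhibitory receptor genes Lag3 (−3.02, adjusted p = 4.7e-05) and Tigit (−2.51, adjusted p = 5.4e-07) and Tox (−1.15, adjusted p = 3.6e-05) were still lower in members. Itgb7 (0.96, adjusted p = 1.1e-05), Itga4 (0.56, adjusted p = 0.0052), Il18r1 (0.95, adjusted p = 0.0032), Ccr2 (1.08, adjusted p = 0.0021) and Socs3 (0.75, adjusted p = 0.019) were still higher. The Ctla4 call was lost (−1.02, adjusted p = 0.084). Against CD62L-high cells with the same Il7r limit (695, 215, 466 and 353 cells) 435 genes were higher and 356 lower.

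Members differed among themselves. After thinning to 1500 UMIs, which left out 19 of 868 members, 36.75, 58.1, 50.63 and 52.65% held a UMI of Cxcr3, Tbx21, Cxcr6 or Ifng (49.5% ± 9.08, SD, n = 4), against 5.12% ± 1.89 of CD62L-high and 44.8% ± 6.09 of PD-1-positive cells. A UMI of the naive genes Igfbp4, Dapl1, Pdlim4, Treml2 or Rapgef4 was held by 17.09, 5.71, 7.53 and 6.36% of members, against 59.7% ± 5.70 and 1.77% ± 0.60. Both kinds were found in 1.48% ± 0.39 of members. Both gene sets were picked after values were seen, so these shares describe the cells. Unthinned, the Th1 shares were 70.7, 11.3 and 75.6% and the naive shares 15.8, 74.5 and 6.04% in members, CD62L-high and PD-1-positive cells. The B cell barcodes had 1.27% and 26.0% thinned, and Treml2 is known to be made by B cells, so they give no background for the naive genes. The members of replicate 1 had the fewest cells with Th1 genes and the most with naive genes.

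**Figure D4:**
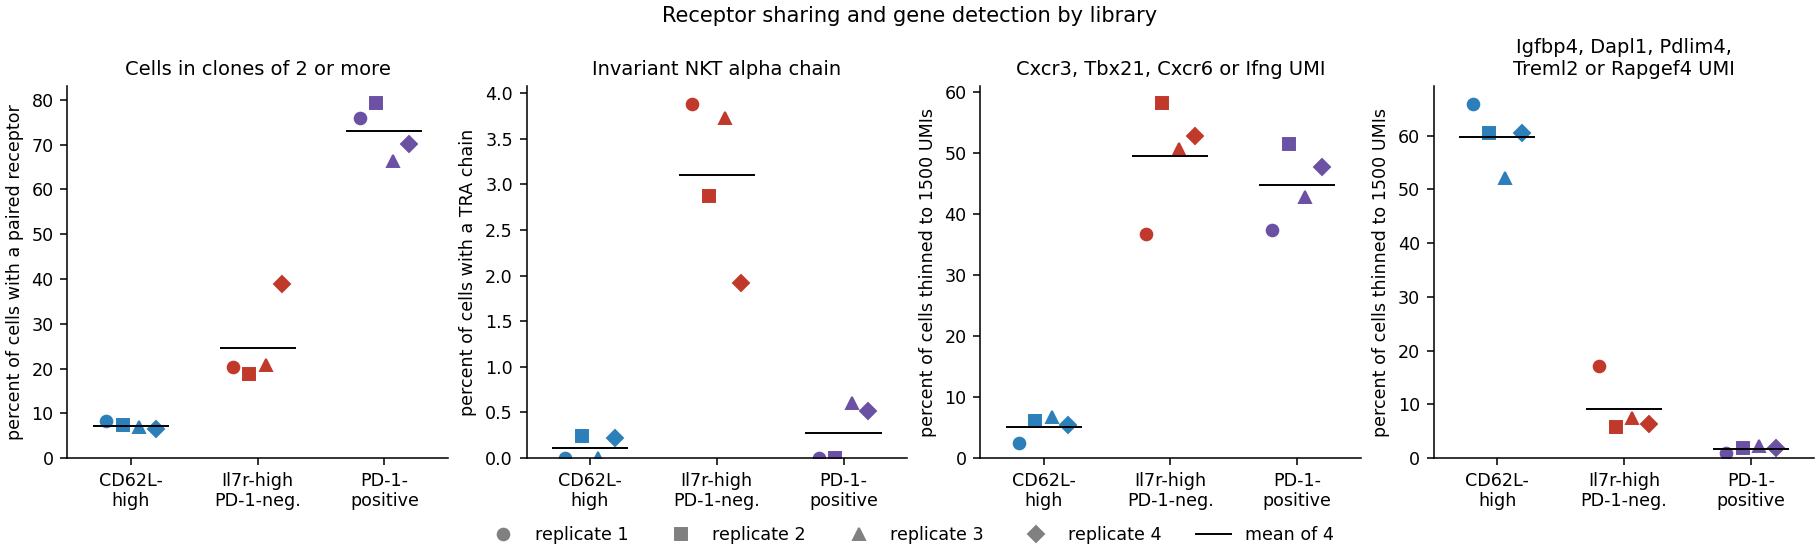
Share of cells by library (symbols; bar, mean of 4) in clones of 2 or more cells, with an invariant NKT alpha chain, with a UMI of 4 Th1 genes and with a UMI of 5 naive genes, in CD62L-high, Il7r-high PD-1-negative and PD-1-positive CD4 cells. Members lie between the populations in clonal expansion (18.7 to 38.9%), near PD-1-positive cells in Th1 genes and near the bottom in naive genes, and hold most of the invariant receptors.

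Clones show how far cells with 1 receptor have multiplied. Among members with a paired receptor (93, 155, 164 and 180), 20.43, 18.71, 20.73 and 38.89% belonged to clones of at least 2 cells of their library (24.7% ± 9.51, SD, n = 4). The share was 8.25, 7.41, 7.02 and 6.43% in CD62L-high cells and 76.01, 79.42, 66.45 and 70.19% in PD-1-positive cells. Members lay above CD62L-high and below PD-1-positive cells in every library, with replicate 4 the highest of the members. The differences were 17.41 percentage points (SD 10.08) and −48.33 (SD 12.95), each in the same direction in 4 of 4 libraries. In the exact two-sided permutation test 2 of 16 sign assignments were as extreme for each, the fewest that 4 pairs allow, so neither difference could pass a threshold of 0.05, and adjustment over the 4 library comparisons made here left these p-values as they were. Without replicate 4 the differences were 12.4 and −54.0. Expanded clones were more frequent among members with Th1 genes in 4 of 4 libraries. Of members with a Th1-gene UMI 35.48, 23.33, 23.26 and 52.17% were in expanded clones, and of members without one 13.11, 12.31, 16.88 and 25.29%. Both comparison populations showed the same order in every library. In CD62L-high cells the shares were 21.43, 37.5, 42.59 and 34.48% with and 7.78, 5.71, 4.13 and 4.81% without such a UMI. In PD-1-positive cells they were 78.22, 83.33, 74.8 and 75.88% with and 74.4, 75.17, 60.34 and 64.77% without one.

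Members formed 102 clones of at least 2 cells, in the sense that at least 1 of the cells was a member. In 35 of them at least 2 cells were members, 20 of these in replicate 4. A PD-1-positive cell was found in 20 of the 102, that is in 21.43, 20, 25.93 and 14.63% per library (20.5% ± 4.65), and a CD62L-high cell also in 20. Seen from the other side, 6.31% ± 1.57 of the 310 PD-1-positive clones of this size held a member. The 20 shared clones held 24 members, 69 PD-1-positive cells and 219 cells in all. Of the 467 cells of the 102 clones, 152 (32.55%) were members, 114 (24.41%) were CD62L-low cells without Pdcd1 that had fewer than 2 Il7r UMIs, 69 (14.78%) were PD-1-positive and 23 (4.93%) were CD62L-high. Most clone mates of members were thus outside the PD-1-positive gate, although a cell without a Pdcd1 UMI may still make PD-1, since droplets capture only part of a cell's mRNA.

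Expanded members were compared with single members on UMI sums in replicates 2, 3 and 4, since replicate 1 had fewer than 20 expanded members. Of 4973 genes tested 11 (0.221%) passed, 7 higher and 4 lower in expanded members. DESeq2's Wald test called 0 genes, and 267 (edgeR) and 38 of 12855 (DESeq2) had an unadjusted p under 0.05. Gzmk, a granzyme of memory and effector cells, was at 60.3, 184 and 150 CPM in expanded and 51.9, 43.0 and 52.5 in single members of replicates 2 to 4 (1.41 ± 0.29, adjusted p = 6.2e-04). The difference lay in replicates 3 and 4, and in replicate 1, which was not in the fit, Gzmk was at 24.0 CPM in expanded and 65.9 in single members. Ifng, at 77.6, 199 and 226 against 107, 115 and 57.5 CPM, was higher in replicates 3 and 4 only (0.91 ± 0.23, adjusted p = 0.031), and Bhlhe40, a transcription factor of cytokine-making T cells, by 1.07 ± 0.26 (adjusted p = 0.025). The antigen presentation genes Cd74 and H2-Ab1 were among the lower ones. Trbv13-3 and Trav5-4, higher, and Trbv29, lower, are receptor gene segments. Itgb1, Klf2, S1pr1, Tox and Cxcr3 did not pass.

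The invariant alpha chain of NKT cells was carried by 4 of 103, 5 of 174, 7 of 188 and 4 of 208 members with a TRA chain, 20 of 673 in all (2.97%, exact 95% interval 1.82 to 4.55%). It was found in 3 of 3656 CD62L-high cells (0.082%, 0.017 to 0.240%) and 4 of 1349 PD-1-positive cells (0.297%, 0.081 to 0.757%). The share was higher in members in every library, and these intervals cover counting error only. Zbtb16, which encodes the NKT cell regulator PLZF, had a UMI in 13 of the 20 invariant members (28 UMIs) and in 1 of the 653 members with another TRA chain (3 UMIs). Over the whole population Zbtb16 was at 14.5, 12.5, 12.0 and 9.84 CPM in members, 1.04, 2.66, 0.167 and 0.221 in CD62L-high and 2.77, 0.892, 5.52 and 1.46 in PD-1-positive cells (3.86 ± 0.64, adjusted p = 4.9e-04 and 2.32 ± 0.57, adjusted p = 0.0036). Against comparison cells with at least 2 Il7r UMIs both Zbtb16 calls were lost (2.77, adjusted p = 0.083, and −0.79, adjusted p = 0.61). Among members with a TRA chain, receptor and transcript thus marked largely the same cells. Members without a TRA chain were not in this count. The invariant members held 15 Tbx21 and 18 Cxcr3 UMIs among 99006, and 5 Ccl5 and 5 Klf2 UMIs, while the others held 3131 Ccl5 and 2724 Klf2 UMIs among 2759955. With the invariant cells left out, 867 genes were higher and 725 lower than in CD62L-high cells and 2173 higher and 2325 lower than in PD-1-positive cells.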

How the data were processed

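Gene and antibody UMI counts per barcode and receptor contigs were used as the authors deposited them, made with Cell Ranger 4.0.0 per the file headers. The submitters' processing notes also name Seurat and mm10, without a role. All values used here are whole-number counts per barcode as deposited, and total gene UMIs per library ranged from 26861163 to 37834174. No normalization or batch correction was applied to them before this work.

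Members and gene lists were chosen with earlier results of these data known. UMIs were summed per population and library, scaled by TMM, filtered with filterByExpr and tested in edgeR 4.0.16 (quasi-likelihood, robust, 3 populations and the library as block, Benjamini-Hochberg adjustment) under R 4.3.3. The block rests on the design, since all 3 populations of a library came from 1 suspension. Deviations from the population means correlated with r of 0.013 to 0.143 between members and CD62L-high cells and of 0.040 to 0.101 between members and PD-1-positive cells. DESeq2 1.42.0 (Wald test) was an alternative. On simulated counts for the comparison with CD62L-high cells (10642 genes, 200 changed) 85% of 2-fold and 99% of 4-fold changes were recovered, with 8 false calls. The simulation gave every gene the same fixed spread, not estimated from these data, and no difference between libraries beyond depth. Recovery and false calls in the real counts can therefore differ.

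Genes were named by a rule: label and rule genes, the 10 largest changes per direction with at least 50 CPM and 4 of 4 libraries in the same direction, and up to 4 genes per list, while the IL-7, integrin, costimulation and migration lists were described by role. Receptor and immunoglobulin segments, mitochondrial, ribosomal and predicted genes were left out of the largest changes. Klf2, Lef1, Tcf7, Slamf6, Satb1, Lag3, Tigit, Gzmk, Dusp2, Bhlhe40, Xcl1, Ccl4, Cd27, Eomes, Id2, Havcr2, Prdm1 and the genes of single counts were named after their values were seen. Shares of cells with a UMI were thinned at random to 1500 UMIs per cell. The positions are RefSeq's, from GRCm38.p6. No doublet caller was run, but barcodes with 2 TRB chains or UMIs of other cells were left out in alternatives. Droplets capture part of a cell's mRNA, so 0 UMIs of Pdcd1 or Il7r in a cell do not show absence, and fewer cells and less mRNA per cell cannot be told apart in sums.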

Additional observations from a re-analysis of the deposited data

Results flagged for a closer look

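In 5 of 88 results that were looked at library by library, 1 of the 4 libraries lay far from the others by Dixon's criterion, a share that chance alone gives about 1 time in 20. The share of members in expanded clones was 38.89% in replicate 4 and 18.71 to 20.73% in the others. The difference of that share from CD62L-high cells was accordingly 32.46 percentage points in replicate 4 and 11.3 to 13.71 in the others. The log2 ratio of Cd40lg (CPM + 1) of members to CD62L-high cells was lowest in replicate 4, at 0.584 against 0.898 to 0.921. For S100a6 the same ratio was lowest in replicate 3, at 1.472 against 1.984 to 2.052. The log2 ratio of Il18r1 of members to PD-1-positive cells was highest in replicate 1, at 2.948 against 1.703 to 1.787.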

How the results depend on the processing

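For members against CD62L-high cells 1622 genes passed. The count was 1012 with only barcodes of 1 TRB chain and no UMIs of other cells, 901 after thinning, 791 with comparison cells of at least 2 Il7r UMIs, 330 without cycling cells, and 1152 to 1376 when 1 library was left out. Without a filter on low counts 42.7% of the calls were higher, against 53.64%. For members against PD-1-positive cells 4525 genes passed. The count was 2991 against PD-1-positive cells without Il21 or Cxcr5, 1652 without barcodes with UMIs of other cells, 1452 after thinning, 745 with comparison cells of at least 2 Il7r UMIs, 422 without cycling cells, 2551 without mitotic cells, and 3647 to 3993 when 1 library was left out. Cycling cells here are those with at least 2 unthinned UMIs of the 22 proliferation genes. This definition marked 80.61% of members and 88.58% of PD-1-positive cells. The sums without them held only 22 to 75 members per library, so fewer cells and cell division cannot be told apart in this setting. Without the replicate block the counts were 1409, 4321 and, for expanded against single members, 7 (11 with it). For the latter, DESeq2's Wald test called 0 genes, no filter on low counts gave 28, and leaving out 1 library gave 8 to 23, with 23 without replicate 2. DESeq2 called 1323 and 3793 genes in the first 2 comparisons.

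The share of members among CD62L-low CD11a-high CD4 cells (19.47%) was 14.03% with at least 3 Il7r UMIs and 27.75% with at least 1. The share of their clones that held a PD-1-positive cell (20.5%) was 35.59% among clones of at least 3 cells. Of the gene values recomputed, 769 of 791 against CD62L-high cells kept direction and side of the threshold, and 863 of 951 against PD-1-positive cells. The directions of 4 genes reversed: Itgb7 against CD62L-high cells (−0.05) and Cd40lg (−0.13) and Ccl5 (−0.62) against PD-1-positive cells without cycling cells, and Zbtb16 against PD-1-positive cells with at least 2 Il7r UMIs (−0.79). The cause was not tested. Zbtb16 gave no value without the invariant cells. The 120 members of replicate 1 are the fewest, and genes at a few CPM there rest on a handful of UMIs. With 4 libraries, 2 of 16 sign assignments is the smallest exact p for shares.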

Other observations

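Besides Th1 genes, members held higher levels of 2 regulators of other helper types than both populations. Rora, a transcription factor of type 17 and innate-like T cells, was at 114, 135, 77.7 and 123 CPM in members, 14.0, 22.4, 22.8 and 20.8 in CD62L-high and 51.8, 57.1, 53.0 and 75.9 in PD-1-positive cells (2.47 ± 0.17, adjusted p = 1.1e-07 and 0.99 ± 0.15, adjusted p = 1.1e-04). Gata3, the type 2 regulator, was at 96.0, 129, 78.7 and 79.7 CPM in members, 39.7, 47.9, 44.2 and 41.0 in CD62L-high and 54.6, 63.3, 60.4 and 54.9 in PD-1-positive cells (1.12 ± 0.11, adjusted p = 3.5e-07 and 0.79 ± 0.11, adjusted p = 8.1e-06), the second call being lost after thinning (0.44, adjusted p = 0.063). Of 11 cytotoxic genes 7 were higher and 1 lower than in CD62L-high cells. Against PD-1-positive cells 7 were higher and none lower, but these were not all the same genes. The gene lower than in CD62L-high cells was Prf1, which encodes perforin, at 9.05, 9.39, 12.0 and 11.8 CPM in members and 27.1, 26.2, 31.6 and 27.6 in CD62L-high cells. Prf1 was among the genes higher than in PD-1-positive cells. The constant segment Tcrg-C2 of gamma delta T cells was at 19.9, 3.13, 5.98 and 10.8 CPM in members, against 0.519, 0.761, 0.335 and 1.77 and 0.925, 4.16, 2.28 and 1.17.

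Among the members' clonotypes (88, 146, 157 and 151, each counted once) 12.5, 8.90, 9.55 and 8.61% used a TRAV5 alpha chain, a family known from insulin-reactive T cells of NOD mice. The share was 9.6, 10.5, 9.90 and 11.5% in CD62L-high and 24.24, 23.88, 15.34 and 21.32% in PD-1-positive cells. Members overlapped with CD62L-high cells and lay below PD-1-positive cells in every library. No test was run on these shares. The alpha chain of another innate-like lineage, mucosal-associated invariant T cells (TRAV1 with TRAJ33), was found in 0 of 673 members, which allows a share of up to 0.547% (exact 95% interval).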
